A study of Larimichthys crocea with 3 samples.

Results

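Nuclear genes of mitochondrial respiration were described in single-cell RNA libraries from the testis of a seasonally breeding marine fish, the large yellow croaker (Larimichthys crocea). The genes were taken by name. A feature was a member if its name, in lower case, began with nduf, uqcr, cox4 to cox8, atp5 or cycs, or was cyc1, and 54 of 27368 features met that rule. By their names, all 54 belong to only 2 of the respiratory complexes. They comprise 35 subunits of complex I, 8 complex I assembly factors, 10 subunits of ATP synthase and its inhibitor atp5if1. No feature carried a name of complex III, complex IV or cytochrome c in that form, so the members are called complex I and ATP synthase genes below. A further 38 features are listed under LOC numbers and have a reference symbol that matches the same pattern. These 38 include 10 genes of complex III, 16 of complex IV and 1 cytochrome c gene, and they are given separately after the members as companion genes.

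Complex I, the NADH:ubiquinone oxidoreductase, passes electrons from NADH to ubiquinone and pumps protons across the inner mitochondrial membrane. ATP synthase uses the resulting proton gradient to make ATP. Both are built from subunits encoded in the nucleus and in mitochondrial DNA, and assembly factors help to build complex I without staying in it. In the mammalian testis, germ cells are known to change their energy metabolism as they pass from spermatogonia (mitotic) through spermatocytes (meiotic) to spermatids (haploid).

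The 3 libraries were made from an adult differentiating testis, an adult regressed testis and a juvenile testis, 1 library per state, from cells dissociated with trypsin and collagenase and run on the 10x Genomics 3′ v3 chemistry. The labels name no genotype, age, season or number of fish. There are no replicates, so no difference below was tested, and state, fish and library cannot be told apart. Intervals are 95% intervals that cover counting error only.

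After filtering, 12841 adult differentiating, 15276 adult regressed and 4560 juvenile cells remained, with median depths of 3697, 12192 and 3091 UMIs (unique molecular identifiers, each marking 1 captured transcript). Between 18 and 68 cell barcodes were shared by any 2 libraries. Levels below are in CPM (the UMIs of a gene over all UMIs of its library or class, scaled as counts per 1e6). Ribosomal protein genes took 137814, 302726 and 197046 CPM in the same order. Values with these genes left out of the total are given for some results only. Other calls near 2-fold can depend on them too, such as those of atp5f1c and ndufv3 between the juvenile and adult regressed libraries. The juvenile library stood apart from its label in one respect. All 9 listed oocyte genes had UMIs in each library, but their summed level was 8628 CPM in the juvenile library. It was 86.3 CPM in the adult differentiating and 137 CPM in the adult regressed library. Marker sums of other cell types differed too. Summed spermatid markers were 3259, 442 and 238 CPM in the adult differentiating, adult regressed and juvenile libraries. Macrophage markers were 56.7, 46.7 and 911 CPM in the same order. Library levels do not separate differences in the mix of cells from differences within cells. The part of these marker differences in the results was not tested.

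The 54 members summed to 12255 CPM (12232 to 12278) in adult differentiating, 15602 CPM (15585 to 15618) in adult regressed and 15125 CPM (15075 to 15174) in juvenile cells, which is 1.23%, 1.56% and 1.51% of all UMIs. The adult differentiating library was the lowest of the 3, at 0.785 times the adult regressed level. The juvenile level was 0.969 times the adult regressed level, and this direction turned to 1.24 times when libraries were scaled by the median of gene ratios. It was 1.23 times the adult differentiating level. After each cell was thinned to 1000 UMIs, the median cell held 13 member UMIs in the adult differentiating library and 14 in each of the others, in the same order as the sums, although by only 1 UMI.

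The complexes ranked the libraries differently. Complex I subunits summed to 8433 CPM in the adult differentiating, 10357 CPM in the adult regressed and 8054 CPM in the juvenile library. ATP synthase subunits summed to 3323, 4660.2 and 6506 CPM in the same order. The juvenile library thus had the highest ATP synthase level. Its ATP synthase level was 1.96 times (1.95 to 1.97) the adult differentiating and 1.40 times (1.39 to 1.40) the adult regressed level, and both ratios stayed above 1 with median-of-ratios scaling (2.81 and 1.79) and with ribosomal protein genes left out of the total (2.10 and 1.21). The complex I ratio of juvenile to adult differentiating, 0.955, turned to 1.37 and 1.03 under those scalings. Of the 10 ATP synthase subunits, 9 were highest in the juvenile library and 9 were lowest in the adult differentiating library. These counts were not made over all features, so no background share stands beside them.

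**Figure D1:**
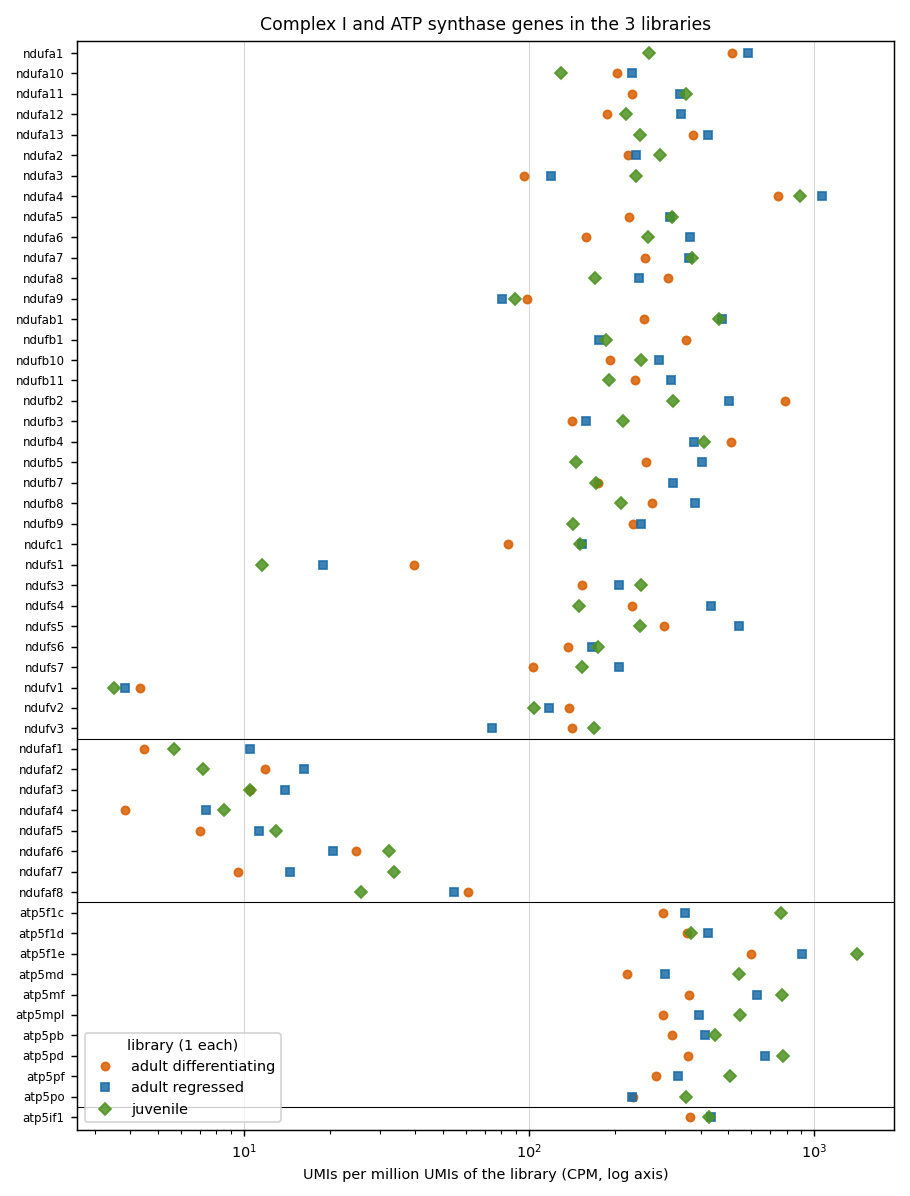
Level of 53 of the 54 complex I and ATP synthase genes in the 3 libraries, in CPM on a log axis, with 1 symbol per library and lines between complex I subunits, assembly factors, ATP synthase subunits and the inhibitor. The juvenile symbols lie farthest right for 9 of the 10 ATP synthase subunits, and ndufv1 lies under 5 CPM in all libraries.

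Members were counted as called when a ratio reached 2-fold in either direction and the pair held at least 100 UMIs of the gene. Between the juvenile and adult differentiating libraries, 8 members were at least 2-fold higher in the juvenile and 3 at least 2-fold lower, where 20.7% and 43.9% of all 16376 features tested were called. The median member ratio was 1.27 and that of all features 0.614. Between the juvenile and adult regressed libraries, 3 members were called higher and 6 lower in the juvenile, where the background was 20.0% and 37.8%. Between the adult differentiating and adult regressed libraries, 2 were called higher and 3 lower, where it was 20.4% and 15.5%. With CPM as the scale, the share of members called was under the background in each pair and direction. The counts depended on the scale: between the adult libraries none was called higher and 12 lower without ribosomal protein genes in the total, and between the juvenile and adult differentiating libraries 23 were called higher and 1 lower with median-of-ratios scaling. The share of all features called was not counted under these other scales, so the CPM background cannot be set beside those counts. The background also holds low genes and was not matched for abundance, and the 3 pairs share libraries.

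Of the ATP synthase genes, atp5f1c, the gamma subunit of the rotating central stalk, stood at 294 CPM in the adult differentiating, 352 CPM in the adult regressed and 768 CPM in the juvenile library. The juvenile to adult differentiating ratio was 2.61 (2.56 to 2.66), and that to the adult regressed library 2.18. The epsilon subunit of the same stalk, atp5f1e, was the most abundant ATP synthase member in each library, at 601, 905 and 1416 CPM. The delta subunit atp5f1d differed from them, with 358, 426 and 369 CPM, so the juvenile level was close to the adult differentiating one. The 3 members of the membrane part were all higher in the juvenile. Among them atp5md, a small subunit known as DAPIT in mammals, stood at 221, 301 and 545 CPM, a juvenile to adult differentiating ratio of 2.47 (2.41 to 2.52), and atp5mf, subunit f, at 363, 630.0 and 769.6 CPM. The 4 members of the peripheral stalk, which holds the catalytic head still, had juvenile to adult differentiating ratios from 1.41 to 2.16, the highest being subunit d, atp5pd, at 361, 675 and 780.0 CPM. The inhibitor atp5if1, which blocks the enzyme from running in reverse, was within 1.19-fold across libraries, at 366, 436 and 428 CPM. Of the 3 companion ATP synthase genes, atp5mc1 was highest in the juvenile library. The other companions, atp5mc3a and atp5l, were highest in the adult regressed library, at 861 and 476 CPM against 751 and 434 CPM in the juvenile. Neither list holds a gene named for the alpha or beta subunit of the head, so the ATP synthase sums leave these out.

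Among complex I subunits, 24 of 35 stayed within 2-fold across the 3 libraries. The exceptions went in different directions. This count, too, was not made over all features. The accessory subunit ndufb2 was the most abundant member of the adult differentiating library, at 791 CPM against 504 CPM in the adult regressed and 319.8 CPM in the juvenile library. Another membrane-arm subunit, ndufb1, stood at 356, 176 and 186 CPM, an adult differentiating to adult regressed ratio of 2.02 (1.99 to 2.05). In the adult regressed and juvenile libraries their place was taken by ndufa4, at 1067 and 892 CPM, as the most abundant complex I name. Mammalian NDUFA4 has since been assigned to complex IV, and the complex I sums here count ndufa4 by its name. The accessory subunit ndufs4 stood at 229, 435 and 149.8 CPM and ndufa6, which binds the acyl carrier protein, at 158, 367 and 261 CPM. Both were highest in the adult regressed library, ndufa6 at a ratio of 0.431 (0.423 to 0.439) and ndufs4 at a ratio of 0.527 (0.519 to 0.535) of adult differentiating to adult regressed. The accessory subunit ndufa3 was highest in the juvenile library, at 95.7, 119 and 237 CPM, and ndufv3 was lowest in the adult regressed library, at 142, 74.3 and 169 CPM. The lowest juvenile to adult regressed ratios were 0.344 for ndufs4 and 0.363 (0.351 to 0.376) for the membrane-arm subunit ndufb5, at 257, 403 and 146 CPM. The accessory subunit ndufa1, at 517, 584 and 264 CPM, and ndufs5, at 298, 543 and 246 CPM, were also lowest in the juvenile library.

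The core subunits, which carry the electron path and its cofactors, also did not move together. The iron-sulfur subunit ndufs1 stood at 39.6 CPM in the adult differentiating and 11.6 CPM in the juvenile library, with the adult regressed level between them and an adult differentiating to adult regressed ratio of 2.08 (1.99 to 2.18), while ndufs7 stood at 103, 207 and 153 CPM, a ratio of 0.497 (0.486 to 0.509). The calls of ndufs1 and ndufb1 were lost when libraries were scaled by the median of ratios or without ribosomal protein genes. A companion feature has the same reference symbol, ndufs1, and stood at 51.7, 38.3 and 47.7 CPM, so the split of reads between the copies is uncertain. The NADH-binding subunit ndufv1 had 4.31, 3.84 and 3.52 CPM, far under ndufv2, its partner in the same module, at 138, 118 and 104 CPM.

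Assembly factors had low levels, from 3.84 to 60.9 CPM in the adult differentiating library, and summed to 133, 149 and 137 CPM. In the order adult differentiating, adult regressed and juvenile, ndufaf7, a methyltransferase that acts on complex I in humans, stood at 9.53, 14.5 and 33.6 CPM. The juvenile level was 3.52 times (3.19 to 3.89) the adult differentiating one, the highest of any member in that pair. By contrast ndufaf8, a partner of ndufaf5 in humans, stood at 60.9, 54.6 and 25.8 CPM, and ndufaf1, an early-acting factor of the membrane arm, at 4.48, 10.5 and 5.69 CPM.

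Germ cell stages could be compared within the adult differentiating library, where clusters were named from marker genes and the members took no part in clustering. The undifferentiated spermatogonia-like class held 251 cells of 1 cluster, the spermatocyte-like class 6615 cells, all but 3 of them from 5 clusters, and the spermatid-like class 3677 cells of 5 clusters. A cluster between the last classes, with 2163 cells, stayed unnamed (c4). Summed undifferentiated spermatogonia markers were 347, 49.0 and 7.58 CPM in the 3 classes in that order, and spermatid markers 437, 985 and 9164 CPM. Spermatocyte markers were 2073, 6396 and 6863 CPM and thus as high in the spermatid-like as in the spermatocyte-like class, so those classes are told apart by the spermatid markers. Within the spermatid-like class, c11 had spermatocyte markers at 9207 CPM and spermatid markers at 7715 CPM. Spermatocyte markers were 4536 to 5188 CPM in c2, c12, c18 and c19 and 11671 CPM in c5, so the stage of c11 is uncertain. In the spermatocyte-like class, the leading genes of c18 and c19 included cell cycle genes, such as fen1 and plk1. The undifferentiated spermatogonia-like class also had the highest summed markers of several other cell types. Sertoli markers were 62.5, 18.1 and 18.4 CPM, macrophage markers 107, 9.56 and 24.2 CPM, peritubular or stromal markers 39.5, 3.46 and 1.39 CPM and endothelial markers 36.1, 9.10 and 4.59 CPM. Endothelial was its second best class. Its median depth was 23867 UMIs, against 1259 to 6515 UMIs in the other clusters of this library with at least 50 cells. The part of these markers and of this depth in the results was not tested. Clusters of the juvenile library, and 7 of the 10 adult regressed clusters, were left unnamed. The juvenile cluster c1, with 3812 cells, had 6 raised undifferentiated spermatogonia markers. It was left unnamed because an oocyte gene was among its leading genes, and oocyte was not itself a class that could be named.

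In the order of these classes, the members summed to 12068 CPM (11987 to 12149.6), 12856 CPM (12824 to 12888) and 10357 CPM (10311 to 10403). On the CPM scale the complex I subunits among the members differed little, with 8435, 8375 and 8090.3 CPM, whereas ATP synthase subunits went from 3131 to 3898 to 1937 CPM. The 7 complex I genes among the companions fell along the same classes, at 687, 566 and 251 CPM. Ribosomal protein genes took 224043, 179018 and 34046 CPM in these classes, so with them left out of the total the complex I sum falls along the series. The 13 mitochondrially encoded genes had a wider range, at 7816, 18564 and 7545 CPM. Among cells with at least 1000 UMIs, thinned as above, the median cell held 12, 14 and 11 member UMIs.

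From undifferentiated spermatogonia-like to spermatocyte-like cells, 1 member was at least 2-fold higher and 3 at least 2-fold lower, where 10.1% and 24.5% of 13666 features were called. The higher one was atp5f1e, at 329.8 CPM and then 677 CPM, a ratio of 2.05 (1.97 to 2.14), which lay under 2-fold without ribosomal protein genes. Its stalk neighbour atp5f1d was similar, at 218 and then 431 CPM, whereas atp5f1c had a ratio of 1.00. The small membrane subunit atp5mpl lay between them, at 223 and then 336 CPM. All 3 lower members were assembly factors. These were ndufaf1 at 16.2 and then 4.84 CPM, ndufaf6, which acts early in assembly, at 58.3 and then 23.8 CPM, and ndufaf7 at 17.3 and then 7.37 CPM. The 35 complex I subunits all stayed within 2-fold, from 0.630 for ndufa6 and the core subunit ndufs3 to 1.45 for ndufb1.

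**Figure D2:**
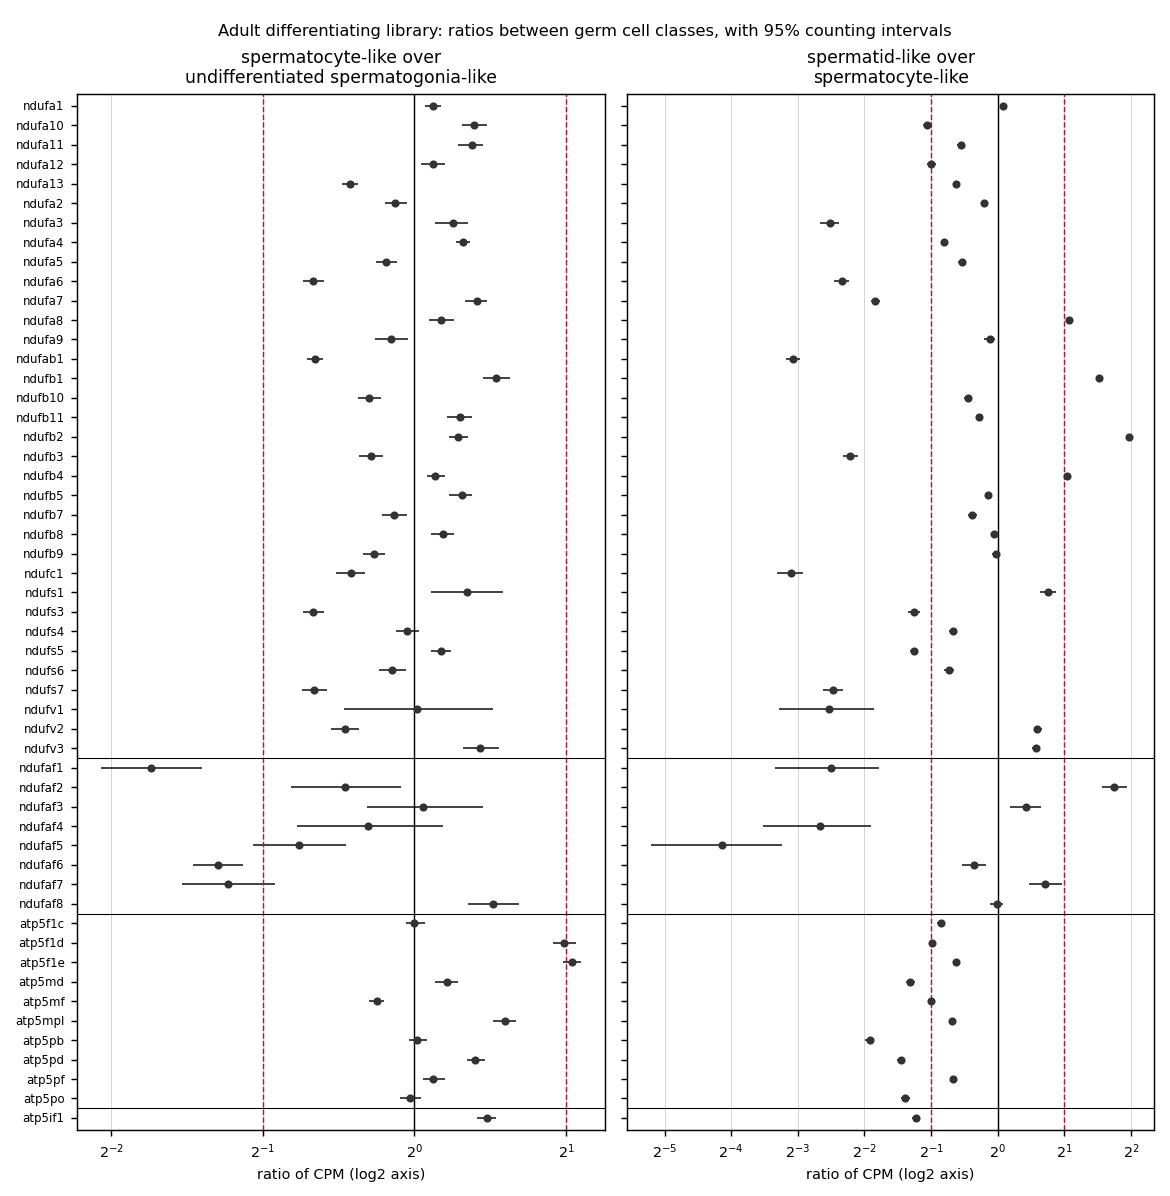
Ratio of CPM between germ cell classes of the adult differentiating library for 53 of the 54 genes on a log2 axis, with points for the ratio, bars for 95% counting intervals, a solid line at 1 and dashed lines at 2-fold. In the left panel most points lie between the dashed lines, while in the right panel they spread from ndufaf5 at 0.0569 to ndufb2 at 3.90.

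From spermatocyte-like to spermatid-like cells the members spread widely. At least 2-fold higher were 5 members and at least 2-fold lower 20, where 21.7% and 52.7% of 13268 features were called. The median member ratio was 0.625 and that of all features 0.435. The complex I sum of the members, near-constant on the CPM scale, therefore came from opposite differences among its subunits, with 4 called higher and 12 called lower.

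The higher members were 4 accessory subunits and 1 assembly factor. The membrane-arm subunit ndufb2 stood at 354, 433 and 1690.1 CPM along the 3 classes, a ratio of 3.90 (3.83 to 3.97) for the last pair, and made up 20.9% of all complex I subunit UMIs in spermatid-like cells. Its relatives ndufb1, at 159, 231 and 657 CPM, and ndufb4, at 359.6, 397 and 819 CPM, showed the same order. So did ndufa8, a subunit facing the intermembrane space, at 189.9, 215 and 451 CPM. The assembly factor ndufaf2, which binds a late intermediate of complex I in humans, stood at 11.1, 8.05 and 27.0 CPM, a ratio of 3.36 (2.94 to 3.84). The calls of ndufa8 and ndufb4 were lost without ribosomal protein genes in the total, which stood at 179018 CPM before and 34046 CPM in the spermatid-like class.

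The lower members included core subunits, to be read against the 52.7% of all features called lower in this pair. No difference from that share was tested. Of the 6 core members, 4 were called lower, among them ndufs7 at 128 and then 23.2 CPM, a ratio of 0.180 (0.163 to 0.199), while ndufs1 and ndufv2 had ratios above 1. The companion feature with the symbol ndufs1 was lower in spermatid-like cells, at 62.1 and then 25.2 CPM. The mitochondrial acyl carrier protein ndufab1 stood at 518, 329 and 39.0 CPM in the 3 classes, a ratio of 0.119 (0.110 to 0.128), and ndufa6, its partner in the complex, at 308, 194 and 38.3 CPM. The accessory subunit ndufc1 stood at 149, 111 and 12.9 CPM, a ratio of 0.116 (0.101 to 0.132). Among assembly factors ndufaf5, which modifies ndufs7 in humans, stood at 15.9, 9.37 and 0.533 CPM, the lowest ratio of all members at 0.0569 (0.0271 to 0.106), while ndufaf4, also an assembly factor, had a ratio of 0.158 (0.0874 to 0.267). With doublets kept, the ratios of ndufaf5, ndufc1, ndufab1 and ndufaf4 lay between 0.253 and 0.325, still under 1.

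All 10 ATP synthase subunits and the inhibitor were lower in spermatid-like than in spermatocyte-like cells under each of the 3 scalings tried. On the CPM scale, 4 of the 10 subunits and the inhibitor were called lower. Among all features 52.7% were called lower, so the share of these genes called was under the background. Most features were thus also lower in spermatid-like cells on that scale. The full share of features with a ratio under 1 is not given here. Among the ATP synthase members, the lowest ratios were in the peripheral stalk, where 3 of 4 were called, and atp5pb, subunit b, had a ratio of 0.264. The central stalk gene atp5f1e had the highest of the members, at 0.650. The sum of the 3 companion ATP synthase genes, given below, had a lower ratio than any of these members, at 0.230 (0.224 to 0.235). The ATP synthase sum was 0.497 times (0.491 to 0.503) the spermatocyte-like level, and atp5if1 was 0.426 times (0.411 to 0.441), going from 448 to 191 CPM.

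Between the ends of the series, spermatid-like against undifferentiated spermatogonia-like cells, 7 members were at least 2-fold higher and 19 at least 2-fold lower of 52 tested, where 24.7% and 51.2% of 12037 features were called. The highest ratios were again those of ndufb2, at 4.77 (4.58 to 4.97), and ndufb1, at 4.14 (3.89 to 4.40). The accessory subunit ndufv3, at 89.7 and 181 CPM, and the core subunit ndufs1, at 23.5 and 50.3 CPM, were called in this pair and not between neighbouring classes. The companion feature with the symbol ndufs1 went the other way, at 49.0 and 25.2 CPM, so the call of ndufs1 rests on an uncertain split of reads. Without ribosomal protein genes in the total, 2 members were called higher, ndufb2 and ndufb1, and 26 lower, with no share of all features counted on that scale. The member sum had a ratio of 0.858, which turned to 1.06 with median-of-ratios scaling.

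Across the 12 clusters of the adult differentiating library, these levels did not change at one step. Of the 54 members, 31 were lowest in c20, a spermatid-like cluster with a member sum of 8805 CPM, and 15 were highest in c5, a spermatocyte-like cluster with 14644 CPM. Another spermatid-like cluster, c16, was close to c5 at 14454 CPM and was the highest cluster for 8 members, with median depths of 1259 UMIs in c16 and 6515 UMIs in c20. Such counts were not made over all features, so no background share stands beside them. In c16, ndufb2 stood at 2310.4 CPM and ndufb1 at 1198 CPM, and atp5pf, coupling factor F6 of the peripheral stalk, at 500.4 CPM against 146 CPM in c20. The unnamed cluster c4 had ndufb2 at 1209 CPM together with spermatocyte-like levels of atp5f1e at 744 CPM. The assembly factor ndufaf2 differed within the spermatid-like class, from 2.42 CPM in c11 and 18.5 CPM in c13 to 64.5, 66.4 and 63.8 CPM in c20, c15 and c16. Of these clusters c11 had the highest summed spermatocyte markers, at 9207 CPM. The accessory subunit ndufa7 was lowest in c11 and c4, at 44.3 and 51.7 CPM, and stood at 469.5 CPM in c5 and 267 CPM in c16.

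**Figure D3:**
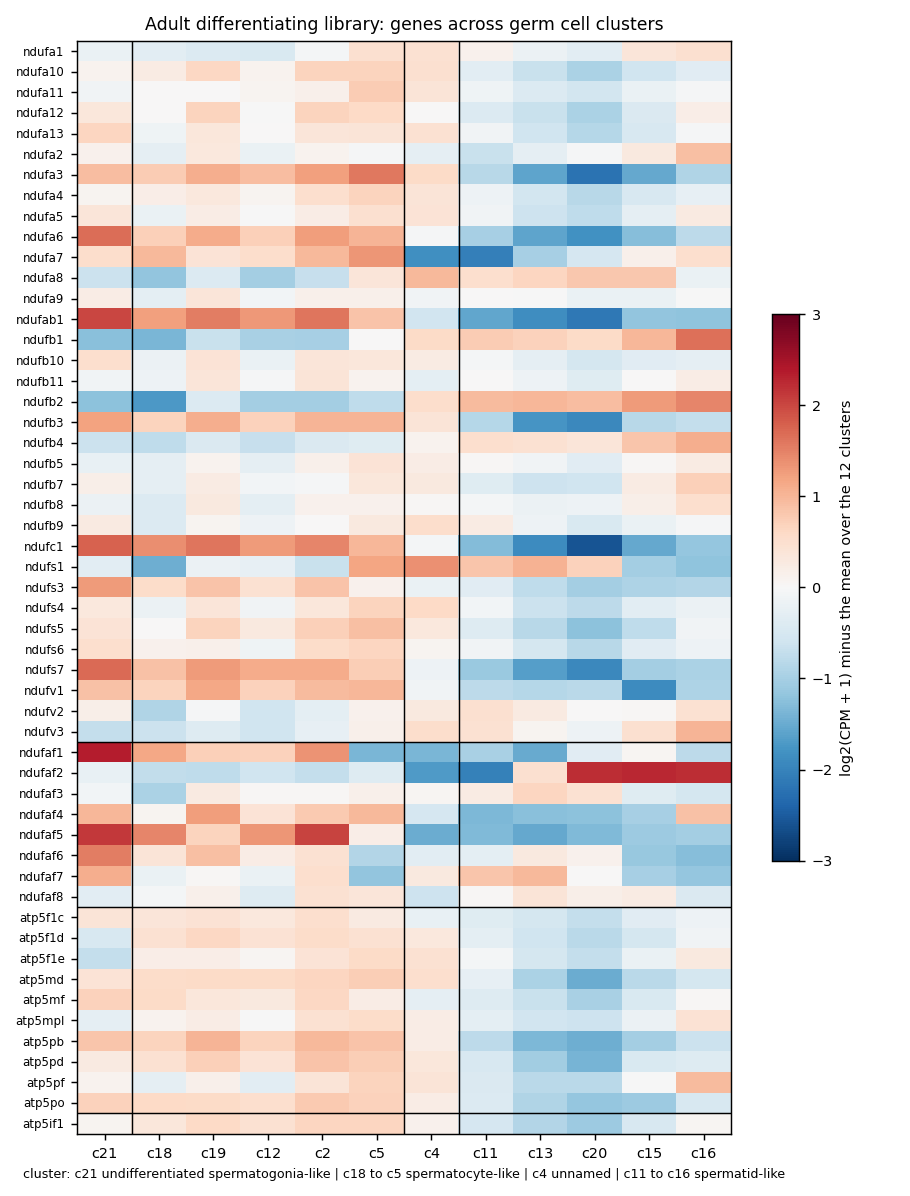
Levels of 53 of the 54 genes across the 12 clusters of the adult differentiating library, as log2(CPM + 1) minus each gene's mean over the clusters, with clusters grouped by germ cell class and genes by role. The ATP synthase rows are below their mean in c11, c13 and c20, where ndufb1, ndufb2 and ndufb4 are above it.

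Cells named spermatocyte-like were found in both adult libraries, so the states were set side by side within that class name. The class held 6615 adult differentiating and 2845 adult regressed cells, mostly from different clusters (c2, c5, c12, c18 and c19 against c8 and c9). In addition 3 adult differentiating cells came from c9, and 23, 2, 4 and 3 adult regressed cells from c2, c12, c18 and c19. The groups had spermatocyte markers at 6396 and 3291 CPM. Clusters c8 and c9 had 3 and 4 raised spermatocyte markers, with adult regressed sums of 3298 and 3283 CPM. The unnamed adult regressed cluster c10 had 2620.4 CPM. Cell cycle genes were among the leading genes of both, such as pcna and pole in c8 and mki67 and cenpf in c9. Whether the 2 groups are of the same stage was not tested. The member sums were 12856 and 13744 CPM, a ratio of 0.935 (0.932 to 0.939) that turned to 1.10 when cells were averaged instead of summed. No member was at least 2-fold higher and 1 was at least 2-fold lower, ndufaf2 at 8.05 and 17.9 CPM, where 12.1% and 10.5% of 14259 features were called. The other ratios ran from 0.614 for ndufa6 and 0.676 for ndufb7, a subunit facing the intermembrane space, to 1.75 for ndufv3. With doublets kept, 2 members were called. The mitochondrially encoded genes differed far more in these cells, at 18564 and 2028 CPM, and all 13 were at least 2-fold higher in the adult differentiating cells, with a median ratio of 7.31.

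Nuclear and mitochondrially encoded levels also diverged between clusters. The highest member sum of the 24 clusters with at least 50 cells was in the adult regressed cluster c14, at 21529 CPM (21466 to 21592), and the same cluster had the lowest sum of mitochondrially encoded genes, 500.4 CPM (491 to 510.1). It therefore held 43.0 member UMIs per mitochondrially encoded UMI, against 6.28 to 9.91 in the adult regressed clusters other than c14 and c23, 2.69 and 2.95 in the juvenile clusters and 0.578 to 1.83 in the adult differentiating clusters. The adult regressed part of c23, with 59 cells, had 1.81, inside the adult differentiating range. Cluster c14 held 782 unnamed cells with a median of 21245 UMIs, and its leading genes included the glycolytic enzyme genes gapdhs and tpi1. Of the 54 members, 41 had their highest adult regressed level there, among them ndufs5 at 888 CPM, ndufs4 at 716 CPM and atp5pd at 982 CPM. The adult regressed Sertoli-like class, 192 somatic cells, had a member sum of 15642 CPM, inside the range of the other adult regressed clusters. In the juvenile library 47 of 54 members were higher in c17 than in c1, whose sums were 18057 and 14422 CPM at median depths of 12780 and 2956 UMIs. Neither this count nor that in c14 was made over all features, so no background share stands beside them. Some marker sums were also higher in c17 than in c1. Macrophage markers stood at 691 and 149.8 CPM, Sertoli markers at 243 and 109.6 CPM and erythroid markers at 42.3 and 3.63 CPM. Others were lower in c17. Oocyte markers, the largest sum in both, stood at 8111 and 10464 CPM and undifferentiated spermatogonia markers at 326 and 677 CPM. Differentiating spermatogonia markers, at 69.9 and 109.6 CPM, and spermatid markers, at 202 and 224 CPM, were lower too. The part of these markers in the difference between c17 and c1 was not tested.

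**Figure D4:**
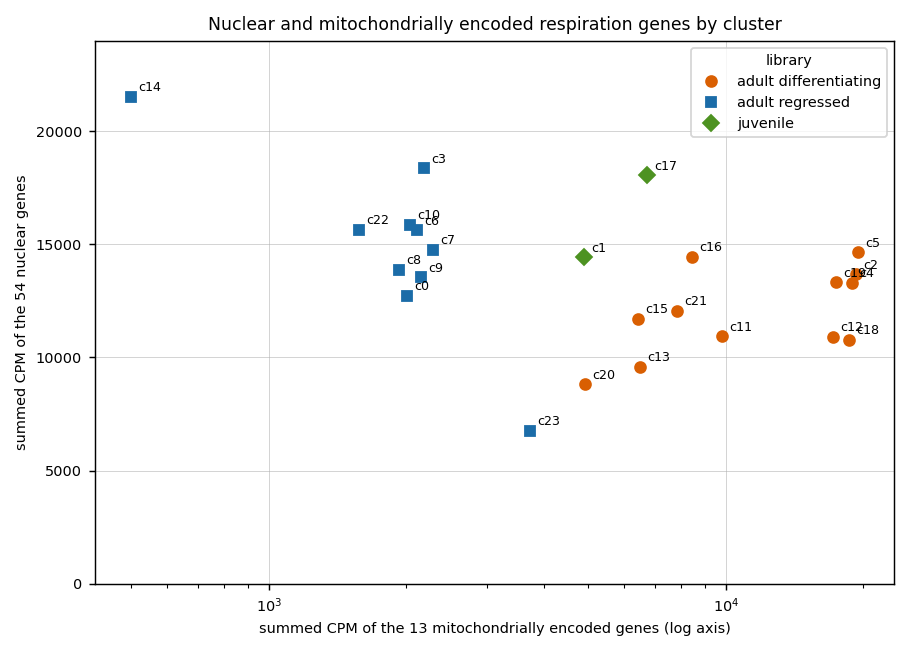
Summed CPM of the 54 nuclear genes against summed CPM of the 13 mitochondrially encoded genes (log axis) in the 24 clusters with at least 50 cells, with symbols by library. The adult regressed cluster c14 lies alone at the upper left, with 21529 CPM of nuclear and 500.4 CPM of mitochondrially encoded genes.

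The companion genes fill in complexes III and IV, and were chosen after their feature names were seen. Complex III genes summed to 2103, 2316 and 2294 CPM in the adult differentiating, adult regressed and juvenile libraries, and complex IV genes to 5360.3, 5386 and 6928 CPM. The cytochrome c gene cycsb, the mobile carrier between those complexes, stood at 60.5, 143 and 655 CPM along the undifferentiated spermatogonia-like, spermatocyte-like and spermatid-like classes. Within the adult differentiating clusters it was highest in c11, at 1077 CPM, and stood at 914 CPM in c4 and 184 CPM in c20. The complex III subunit uqcr11 showed the same order of classes at 283, 348 and 778 CPM, while the Rieske iron-sulfur protein uqcrfs1 stood at 44.5, 78.1 and 6.51 CPM. Of the 34 companion genes tested between spermatid-like and spermatocyte-like cells, 2 were called higher and 19 lower, with a median ratio of 0.466, where 21.7% and 52.7% of all features were called and their median was 0.435, so the lower share was near the background. The genes of the proton-carrying ATP synthase c ring were also lower in spermatid-like than in spermatocyte-like cells, with atp5mc3a at 731, 548 and 42.4 CPM and atp5mc1 at 773, 819 and 179 CPM.

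Some paralogous companion genes stood at unlike levels and others at like ones, and reads may be split between near copies by the authors' counting. In the adult differentiating, adult regressed and juvenile libraries, cox8a stood at 283, 265 and 276 CPM and cox8b at 353, 448 and 214 CPM. Likewise cox5aa stood at 471, 302 and 482 CPM and cox5ab at 331, 458 and 262 CPM. Other pairs were unlike. Among complex IV pairs, cox4i1 stood at 725, 792 and 757 CPM in the adult differentiating, adult regressed and juvenile libraries and its paralogue cox4i2 at 3.08, 7.11 and 24.2 CPM. The subunit gene cox6b2 stood at 418, 400.0 and 399 CPM and cox6b1 at 4.16, 1.54 and 24.1 CPM. In mammals COX6B2 is known as the testis form. In the adult regressed library cox6b2 stood at 590.4 CPM in the somatic Sertoli-like class and 368 CPM in spermatocyte-like cells. The gene cox7a2l, named for a factor that joins complexes III and IV in mammals, stood at 28.1, 61.0 and 507 CPM, the largest difference between the juvenile and adult differentiating libraries among the companion genes tested, at 18.1-fold. The Sertoli-like class held cox4i2 at 88.9 CPM and cox6a2 at 57.0 CPM, against 3.45 and 0.187 CPM in adult regressed spermatocyte-like cells. Macrophage markers in the Sertoli-like class, led by cd74b, summed to 1232 CPM and Sertoli markers to 955 CPM, against 9.07 and 33.1 CPM in those spermatocyte-like cells, and their part in this difference was not tested. The second inhibitor gene atp5if1b stood at 189.8, 327 and 40.5 CPM, unlike atp5if1.

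Other parts of the respiration pathway were taken as lists, to be read against the share of all features called, which was 52.7% lower and 21.7% higher from spermatocyte-like to spermatid-like cells. In that pair, 33 of 39 further assembly factors were called lower and 4 higher, with nubpl, an iron-sulfur factor for complex I, the highest at 3.90 and surf1, a complex IV factor, the lowest at 0.0439. Of 14 regulators and genes of mitochondrial DNA expression, 9 were lower and 2 higher, led by ppargc1b at a ratio of 11.2, with the DNA polymerase polg at 0.0158. Of 17 genes of coenzyme Q synthesis and other electron donors, 11 were lower and 2 higher, from 0.0276 for coq8a to 3.41 for coq6. Of 8 complex II genes, 2 were lower and 2 higher, from 0.0242 for sdhaf3 to 2.88 for sdhaf2. Among 6 carriers and outer membrane channels, 4 had enough UMIs and 3 were lower, vdac2 the lowest at 0.0523. Of the 13 mitochondrially encoded genes, 11 were lower, from 0.109 for ND3 to 0.600 for COX1.

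Comparing adult libraries, all 13 mitochondrially encoded genes were higher in the adult differentiating one, from 2.59-fold for ND4L to 17.1-fold for COX3, where 20.4% of all features were at least 2-fold higher and 15.5% lower. Of the 39 further assembly factors 13 were at least 2-fold lower and none higher, from 0.249 for uqcc3 to 1.74 for cox19. The summed mitochondrially encoded level was 15239, 1946 and 5860.1 CPM in the adult differentiating, adult regressed and juvenile libraries. Between the juvenile and adult differentiating libraries, where 20.7% of all features were at least 2-fold higher and 43.9% lower, the 39 further assembly factors had 16 members higher and 6 lower, with the copper chaperone cox17 at 75.1-fold. Of the 6 carriers and channels 5 were higher, led by vdac2, an outer membrane channel, at 17.4-fold. Of the 13 mitochondrially encoded genes 6 were lower, a share near the background, and none was at least 2-fold higher.

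Over the 24 clusters, the non-member feature whose log2 level was most like the member sum was sdhc, the membrane anchor of complex II, with a Pearson correlation of 0.895. It was followed by srrd at 0.871, LOC104922789, which has no symbol here, at 0.869 and sf3b5, a splicing factor subunit, at 0.857. The median over 12859 features was 0.137, the correlation of summed ribosomal protein genes was 0.389 and that of summed mitochondrially encoded genes was -0.391. Clusters of a library share its preparation and depth, so these values are descriptions.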

How the data were processed

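The values the authors deposited are raw UMI counts, 1 matrix for each of 3 libraries with 14800 (adult differentiating), 17828 (adult regressed) and 4742 (juvenile) barcodes, with 102809626, 293009193 and 24826985 UMIs. Cell Ranger 5.0.0 is the source of the matrices per the file headers, whereas the submitters' processing notes name Cell Ranger 3.1.0 and STAR. The genome build is not given in the sources used here, so LOC features were named from a reference table of assembly L_crocea_2.0 and no coordinates or sequences are given. Of 15972 LOC features, 15971 were found there and 6125 had a symbol.

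Barcodes were kept with 500 or more UMIs, 300 or more genes and a mitochondrial share of 20% or less. Doublets were scored per library with a reimplementation of the Scrublet method, and the top 0.8% per 1000 barcodes were removed, which took 1752, 2543 and 180 barcodes. Cells were clustered with Leiden at resolution 1 (leidenalg 0.10.2, scikit-learn 1.9.0) on 30 principal components of 2000 variable genes and 20 neighbours. Members, companion genes, pathway lists, mitochondrial and ribosomal genes were left out of the variable genes. A cluster was named only where at least 3 markers of a class were raised and no other rule on leading genes or depth was broken, which left 15 of 28 clusters with a name. An oocyte gene among the leading genes barred a name, and oocyte was not itself a class that could be named.

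UMI counts were summed per library, class or cluster and divided by the total (CPM). A 3′ UMI counts 1 molecule whatever its length, so no length division was made. Sums have exact Poisson intervals and ratios exact binomial ones (scipy 1.17.1). Scaling by the median of gene ratios, an alternative, shifted log2 ratios by -0.13 (adult differentiating over adult regressed), 0.36 (juvenile over adult regressed), 0.52 (juvenile over adult differentiating), 0.13 (spermatocyte-like over undifferentiated spermatogonia-like), 0.03 (spermatid-like over spermatocyte-like) and -0.21 (adult differentiating over adult regressed spermatocyte-like). The genes named for each comparison are the 5 highest and 5 lowest member ratios, the most abundant member of each role, some of the paralogues, the ends of pathway lists and features most like the member sum. Other members were named after their values were seen. Members and lists were chosen with earlier results of these data known. One member counts in the sums and totals but is not reported here by itself.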

Additional observations from a re-analysis of the deposited data

How the results depend on the processing

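The direction of the member sum held in the comparisons and alternatives run, with 3 exceptions, and counts of calls stayed within 1.5 times except where given here. Between the adult differentiating and adult regressed libraries the ratio of sums was 0.658 without the 50 most abundant genes in the total, 0.716 with median-of-ratios scaling, 0.913 as a mean over cells and 0.635 without ribosomal protein genes (chosen after seeing the data), and calls were 12 instead of 5 without either gene set. Between the juvenile and adult regressed libraries it was 0.973 with every deposited barcode or with doublets kept, 0.892 without the 50 genes, 0.996 as a mean over cells, 0.842 without ribosomal protein genes and reversed to 1.24 with median-of-ratios scaling. Between the juvenile and adult differentiating libraries it was 1.24 with every barcode, 1.36 without the 50 genes, 1.77 with median-of-ratios scaling (24 calls instead of 11), 1.09 as a mean over cells and 1.33 without ribosomal protein genes. Calls under these alternatives were counted for members, and no share of all features stands beside them.

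From undifferentiated spermatogonia-like to spermatocyte-like cells the ratio of sums was 1.05 at Leiden resolution 2, 1.09 without c18 and c19 (also chosen after seeing the data), 1.16 with median-of-ratios scaling, 1.15 as a mean over cells and 1.01 without ribosomal protein genes. From spermatocyte-like to spermatid-like cells these were 0.801, 0.785, 0.823, 0.823 and 0.685, and the ratio was 0.811 with each library clustered on its own, 0.793 with more variable genes and 0.847 with doublets kept. For spermatocyte-like cells of the adult differentiating over the adult regressed library they were 0.987, 0.960, 0.809, 1.10 (reversed) and 0.831, with 0.865 for each library clustered on its own and 0.888 with doublets kept, where calls were 2 instead of 1. From undifferentiated spermatogonia-like to spermatid-like cells, run under the scaling alternatives only, 0.858 reversed to 1.06 with median-of-ratios scaling and was 0.689 without ribosomal protein genes. The cause was not tested. Among single genes, 5 moved by over 1.5 times, all with doublets kept, among them ndufaf5 0.253, ndufc1 0.283, ndufab1 0.288 and ndufaf4 0.325. The comparison of spermatocyte-like with undifferentiated spermatogonia-like cells could not be made with each library clustered on its own, because no cluster then met the rule for undifferentiated spermatogonia-like cells. No paired analysis was possible because each group is 1 library. Low genes such as ndufv1, with 84 UMIs in the juvenile library, have the widest intervals.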
